A study of Mus musculus with 26 samples.

Results

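Baseline translation of the normal adult striatum was described from non-transgenic (non-TG) control mice of a ribosome profiling series on LRRK2. All transcripts with control means in the table that sets these mice beside GS/DA LRRK2 transgenic (TG) mice were taken, with no filter, which gave 8576 of the 9602 transcripts listed over the tables of the series. Translation efficiency (TE) of a transcript was the mean of ribosome footprints in its coding sequence (CDS) divided by its RNA-Seq mean, on the log2 scale. The same transcripts have control means in the table of GS LRRK2 TG mice. A separate cohort, WT mice set beside LRRK2 KO mice, has 9561 transcripts and serves as a second set of normal striata.

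Of 26 samples in the series, 3 footprinting and 3 RNA-Seq samples are labelled non-TG control striatum, and 3 footprinting and 2 RNA-Seq samples are labelled WT striatum. Both cohorts are C57BL/6 mice with the genotype label wild-type and an age of 3 months. The non-TG controls came from the breeding of CaMKII-tTA driver mice with a doxycycline-regulated LRRK2 line, in which the mothers were kept on doxycycline chow until weaning. Each sample was caudate putamen pooled from several mice of both sexes, and 1 lysate gave both the footprints and the rRNA-depleted total RNA.

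Ribosome footprints are the stretches of mRNA that a translating ribosome shields from nuclease, so their number relative to the mRNA reports how densely ribosomes occupy a message. Ribosomes are loaded by scanning from the cap to a start codon, and stable folds or upstream start codons in the 5′UTR are known to hinder that scan. In brain, much mRNA also lies in dendrites and axons as stalled or packaged particles, and mRNAs for the translation machinery carry a 5′ terminal oligopyrimidine (TOP) tract that couples them to mTOR signaling.

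The deposited means do not list single libraries, but each control mean of the GS/DA LRRK2 TG table was resolved into 2 libraries per assay. The footprinting libraries, called A and B, held 9674672 and 15719107 reads in coding sequences, and the RNA-Seq libraries held 11792867 and 12200213. The reads of both libraries were recovered for 98.7% of transcripts in footprinting and 98.9% in RNA-Seq. In WT the footprinting libraries held 3098633 and 5192570 reads and the RNA-Seq libraries 3184789 and 7613197. The libraries carry no replicate number, the letters do not pair a footprinting with an RNA-Seq library, and they were not matched to the labelled samples. The study treats the libraries of a group as replicates, and the tests rest on the spread between them.

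The footprinting libraries of the control were close to each other, with an SD of 0.246 for the log2 ratio of A to B over 6958 transcripts. The RNA-Seq libraries were not, with an SD of 1.45 over 7024 transcripts, and this ratio followed the GC content of the CDS (rho = 0.775 across genes). In WT the SDs were 0.644 for footprinting and 0.661 for RNA-Seq. There the footprinting ratio followed GC content (rho = -0.630) and the RNA-Seq ratio did not (rho = -0.022), and in non-TG control the footprinting ratio had a rho of 0.455. The choice of RNA-Seq library therefore moves the control TE of a GC-rich or AT-rich transcript more than the choice of footprinting library. The part of library preparation in this was not tested.

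TE of non-TG control had a median of 0.04 and an SD of 0.841 over the 8576 transcripts, and ranged from -4.05 to 3.53. The zero of this scale is set by the separate normalization of the assays, so all further values are TE relative to the median of all transcripts. On that scale the middle 50% of transcripts lay between -0.54 and 0.50, a 2.06-fold range, and the central 90% between -1.50 and 1.24, a 6.70-fold range. There were 188 transcripts below -2, or 2.19%, and 45 above 2, or 0.525%. The control columns beside GS LRRK2 TG, which carry the same control label and are not independent of these, gave an SD of 0.846 with 190 and 50 transcripts in these tails. WT gave an SD of 0.719 with 164 and 4. With 1 WT RNA-Seq library alone the SD was 0.607 for A, with 77 and 8, and 0.935 for B, with 326 and 34. WT footprinting library A alone gave 304 and 13, and library B alone 157 and 1.

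With RNA-Seq library A alone the SD of control TE was 1.19, and with library B alone it was 1.09. The longer tail turned with either, with 261 transcripts below -2 and 568 above 2 for library A, and 223 and 355 for library B. Across genes, TE with library A and TE with library B had a rho of 0.164 although they share the footprinting mean, whereas TE with either footprinting library had a rho of 0.947. Control TE and WT TE, from different mice in separately normalized tables, had a rho of 0.739 over 8535 transcripts. Genes are not independent replicates, and both cohorts share the annotation, the protocol and the base composition of each transcript.

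No transcript of non-TG control passed limma's moderated test of TE against the median at an adjusted p under 0.05 (0 of 8401 tested, 0%, in either direction), with 953 at an unadjusted p under 0.05. With trend and robust settings limma also called 0, with 930 at that unadjusted level. The smallest adjusted p was 0.366. Leaving out RNA-Seq library A gave 5275 calls and leaving out library B gave 5366, because the lone RNA-Seq library is then assumed to vary as little as the footprinting libraries. Leaving out footprinting library A or B gave 0. Since 1 lysate gave both assays, the libraries are paired in a way the files do not state, and with a replicate block limma called 121 under 1 possible pairing and 23 under the other.

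A plainer measure is whether both footprinting libraries of a transcript lay above, or both below, both of its RNA-Seq libraries after centring. In non-TG control 1637 transcripts lay above (19.5% of those tested) and 2251 below (26.8%), and these transcripts are called above and below hereafter. Without centring the split was 2218 above and 1802 below. In WT 2327 lay above (24.8%) and 2572 below (27.4%), against 67 and 5875 without centring, since the median of WT TE as deposited was -0.64. Among 8248 transcripts tested in both cohorts, 889 lay above in both, which is 55.1% of those above in non-TG control and 43.8% of those above in WT. Below in both were 1347, which is 61.1% and 58.9%.

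In WT limma called 48 of 9402 transcripts with lower TE (0.511%) and 0 with higher TE (0%), with 1388 in either direction at an unadjusted p under 0.05. Trend and robust settings gave 47, but a pseudocount of 1 in place of 10 gave 2, and a minimum of 500 for both means gave 0. Without footprinting library B there were 95, without footprinting library A there was 1, and without RNA-Seq library A or B there were 0, so the number of calls depends on single libraries. With a replicate block there were 0 under 1 possible pairing and 1469 under the other, of which 365 were higher and 1104 lower. Without centring 1361 were called, all lower. The estimates of the 48 ran from -4.44 to -2.12. Of these, 41 are listed for non-TG control, where their lowest TE was -4.09, and 36 of the 39 with resolved libraries lay below there.

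The smallest adjusted p in WT belonged to Nrsn1, which encodes neurensin, a vesicle membrane protein of neurons (-4.44 ± 0.37 SE, limma adjusted p = 0.0265). Its footprints were 35.97 and 43.61 normalized reads in libraries A and B, against 1258 and 2117 for its RNA. In non-TG control its footprints were 186.6 and 241.8 against 3072 and 674.3 for RNA, so no footprinting library overlapped an RNA-Seq library in either cohort. Map3k10, a kinase upstream of JNK, followed (-3.84 ± 0.36 SE, limma adjusted p = 0.0299), and its TE of -4.09 was the lowest of all transcripts in non-TG control.

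The next calls shared a limma adjusted p of 0.0399. Among them were Shank1, a postsynaptic scaffold, at -3.52, Pkd1, which encodes polycystin, at -3.69, and Atxn7l3, a subunit of the SAGA deubiquitinase module, at -2.90. Rasl10b, a small GTPase, was at -3.26 and Rtn2, a reticulon of the endoplasmic reticulum, at -2.65. The uncharacterized 6030419C18Rik was at -3.51, while St3gal2, a sialyltransferase, and Slc6a8, the creatine transporter, are not among the transcripts of the control table. In non-TG control Shank1 did not lie below, since its RNA was 1912 in library A and 168.1 in library B against footprints of 202.9 and 174.8. The other 5 with control values lay below in both cohorts. The 48 transcripts had a median CDS GC content of 58.7%, and 34 of 44 with an annotated 5′UTR held an upstream ATG. Over all transcripts tested in non-TG control the median GC content was 52.8% and 50.1% held one. The 48 were drawn from the transcripts tested in WT, for which these values are not given, so the sets differ.

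Among transcripts with both control means of at least 500, the highest TE was 3.49, of 1 of 4 Gapdh entries (uc012gth.1). The entries of this glycolytic enzyme share reads with near-identical copies and range from 0.91 to 3.49, so none of these values is certain. Marcks, an actin-binding substrate of protein kinase C, followed at 3.05, with footprints of 4855 and 3994 and RNA of 889.8 and 150.5 normalized reads. Both of its footprinting libraries exceeded both RNA-Seq libraries, and it lay above in WT too.

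Slc1a2, the glial glutamate transporter, had a TE of 2.24 in non-TG control, with footprints of 13370 and 14330 against RNA of 1212 and 4491. In WT its TE was 0.53 and the libraries overlapped, so the high value was not seen in the other cohort. The other high values were Scd3, a fatty acid desaturase, at 2.57, Cadm2, a synaptic adhesion molecule, at 2.37, the inducible chaperone Hsp90aa1 at 2.13 and the proteasome shuttle Ubqln2 at 2.13. Growth hormone, Gh, stood at 2.79 but had 38 RNA reads in library A and 1106 in library B, which puts its TE at 6.56 or 1.77.

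The lowest TE in the same range of means was -3.63, of Spnb3, a spectrin of the membrane skeleton, followed by Ankrd12, a nuclear ankyrin repeat protein, at -3.38. Ppp1r9b, which encodes spinophilin of dendritic spines, was at -3.21, and WT gave -2.75. The RNA-Seq libraries of non-TG control were not resolved for Spnb3, Ankrd12 and Ppp1r9b. Ddn, or dendrin, a postsynaptic protein whose mRNA is known to enter dendrites, was at -2.97. Its RNA was 22870 and 11060 normalized reads against footprints of 2453 and 2013. Each RNA-Seq library thus exceeded each footprinting library, and WT gave -2.57. Rnf10, a ring finger protein, was at -2.96, the PDZ protein Pdzd4 at -3.08 and 2610507B11Rik at -2.91, and each of these lay below in both cohorts.

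Other low values rested mostly on 1 RNA-Seq library. Arhgap10, a GTPase-activating protein, was at -0.76 with library A alone and -4.06 with library B alone, though it lay below in both cohorts, and mKIAA1386 was at 0.45 and -3.89. Ankrd12 had a TE of 0.39 in WT, opposite in sign to the control. Of the 10 lowest transcripts, 9 had a TE below the median in WT, 7 of 7 with resolved RNA-Seq reads did so with library B alone and 5 of 7 with library A alone. Of the 10 highest, 8 of the 8 listed in WT lay over the median there, and 3 exceeded 1.

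Ribosomal protein mRNAs had the lowest median TE of 40 gene classes examined in non-TG control, though not in WT, where selenoproteins (-0.78) and stress response mRNAs (-0.72) had lower medians. The 33 measured small subunit mRNAs had a median TE of -1.24, and 27 lay below and 2 above, against 26.8% and 19.5% of all transcripts. The 43 large subunit mRNAs had a median of -1.16, and 32 of 40 with resolved libraries lay below and 0 above. The medians were -1.34 and -1.08 with RNA-Seq library A alone, and -1.18 and -1.19 with library B alone. In WT they were nearer to the middle, at -0.62 and -0.54, with 25 of 33 and 25 of 42 below. These lists lay under the median in all 11 settings tried, WT and single libraries included. Counts above and below in this and later lists stand against 19.5% and 26.8% of all transcripts, or 24.8% and 27.4% in WT. A share near these does not set a list apart.

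Rps12 of the small subunit had the lowest TE of its list, -2.57. Its footprints were 979.5 and 977.3 normalized reads, and its RNA was 4553 and 6777, so every RNA-Seq library was several times every footprinting library. Rpl37 was lowest in the large subunit at -2.53, with footprints of 1600 and 1644 and RNA of 7297 and 10870. Rps24, Rps3a and Rpl3 were at -2.16, -2.14 and -2.01. Over the median were Rps4x at 0.80, Rps27l, a paralog of Rps27, at 0.78, Rpl22l1, a paralog of Rpl22, at 0.42, Rpl27 at 0.37 and Rpl36al, a paralog of Rpl36a, at 0.31. Ribosomal protein genes have many processed pseudogenes, and reads of Rps4x, Rpl36a and others cannot be assigned with certainty.

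The other TOP mRNAs, which encode elongation factors and related proteins, had a median of -0.61 over 17 transcripts, with 6 of 15 below and 3 above, and -0.74 and -0.48 with RNA-Seq libraries A and B alone. Eef1b2, an exchange factor for elongation, was the lowest at -1.74, with footprints of 2589 and 2792 against RNA of 4569 and 12910, and Eef1g of the same complex was at -1.71. An Hnrnpa1 entry at 0.99 and the nucleolar chaperone Npm1 at 0.96 were the highest, and Hnrnpa1 has a second entry at -0.33 that shares its reads. In WT the median of the list was -0.09, with 7 of 17 below and 4 above.

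Initiation factor mRNAs sat near the middle. Their median was 0.12 over 37 transcripts, with 6 of 35 above and 7 below, which are shares near those of all transcripts. The highest was Eif3j, a loosely bound eIF3 subunit, at 1.85, with footprints of 830.5 and 988.8 against RNA of 173.3 and 317.6. The lowest was Eif2b5, the catalytic subunit of the eIF2 exchange factor, at -1.48. Eif4b, a TOP mRNA for the cofactor of the helicase eIF4A, was at -1.17, whereas Eif4a1 itself was at 0.12. The median was 0.12 and 0.06 with RNA-Seq libraries A and B alone, and 0.33 in WT, where 17 of 37 lay above.

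Aminoacyl-tRNA synthetases, which charge tRNAs, differed between the cohorts. In non-TG control their median was -0.11, with 10 of 21 below and 1 above, and -0.08 and -0.39 with RNA-Seq libraries A and B alone. In WT it was 0.31, with 2 below and 9 above. Sars, the seryl enzyme, was at -1.06 in non-TG control and 0.29 in WT, and its libraries separated in both. Dars, the aspartyl enzyme, was the highest in non-TG control at 0.73, and Fars2, the mitochondrial phenylalanyl enzyme, the lowest at -1.10. The difference between cohorts was not tested, since the tables were normalized separately.

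The mRNAs known for upstream open reading frames or roles in the integrated stress response had a median of -0.62 over 9 measured of 18 listed, with 6 below and 2 above. It was -0.47 and -0.63 with RNA-Seq libraries A and B alone and -0.72 in WT, but -0.15 among those with both control means at least 500. Atf4, the transcription factor whose translation is held down by upstream frames until eIF2 is phosphorylated, had the lowest TE of all classes at -3.59. Its footprints were 334.4 and 176.4 normalized reads and its RNA was 2649 and 3322. The limma estimate was -3.71 ± 0.47 SE (adjusted p = 0.366) in non-TG control and -2.06 ± 0.43 SE (adjusted p = 0.101) in WT, and neither passed the test although Atf4 lay below in both.

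Ppp1r15b, the constitutive eIF2 phosphatase subunit, was at -0.63, with footprints of 427.1 and 472.1 and RNA of 787.7 and 568.7. The eIF2 kinases Eif2ak3, Eif2ak1 and Eif2ak4 were at -0.92, -0.62 and -0.49, and all lay below. Ifrd1, whose mRNA has a known upstream frame, was at -1.48. In contrast Asns, asparagine synthetase and a target of Atf4, was at 0.39, and the growth arrest gene Gadd45g was the highest at 0.94.

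Several upstream frames are known for Atf4. In the annotated transcript used, on the NCBIM37 (mm9) assembly, 1 upstream ATG lies 99 bases before the annotated start, and its frame ends after 3 codons. Upstream ATGs whose surroundings cross an exon boundary were not listed, so others may be present. The annotated start was not checked against the known frames. This upstream ATG is shown with its surroundings because the gene stands so far from the other stress response mRNAs, and capitals mark it. It lies at chr15:80086003-80086023 on the + strand, in the 5′UTR.
Atf4 upstream ATG: gcggccaccATGgcgtattag

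Iron metabolism mRNAs had a median of -0.03 over 10 transcripts, with 3 of 8 above and 3 below, and -0.32 in WT, with 1 of 10 above and 5 below. The median was -0.27 and 0.19 with RNA-Seq libraries A and B alone, and 0.18 and 0.15 with footprinting libraries A and B alone. The lowest were the ferritin subunits, whose mRNAs carry an iron-responsive element in the 5′UTR that blocks initiation when iron is scarce. Fth1 was at -2.19, with RNA of 37360 and 18330 against footprints of 5821 and 6755, and WT gave -2.17. Ftl1 was at -1.93 and its near-identical copy Ftl2 at -2.30, with reads that cannot be divided with certainty. The transferrin receptor Tfrc, whose elements lie in the 3′UTR and act on mRNA stability, was the highest at 1.35. Its TE was 2.75 with RNA-Seq library A alone and 0.57 with library B alone.

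Selenoproteins, in which a UGA codon is read as selenocysteine, had a median of -0.72 over 9 measured of 23 listed, with 5 below and 0 above. The medians were -0.70 with RNA-Seq library A, -0.80 with library B and -0.78 in WT. Gpx1, glutathione peroxidase, was the lowest at -1.39, with footprints of 1483 and 1851 against RNA of 4901 and 3596. Sepx1, a methionine sulfoxide reductase, was the highest at 0.15. Footprints past the UGA codon cannot be told from those before it in sums over the CDS.

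Polyamine pathway mRNAs had a median of -0.71 over 7 transcripts, with 3 below and 0 above. Odc1, the rate-limiting ornithine decarboxylase, was at -1.22, with footprints of 1065 and 1228 and RNA of 2170 and 3036. Sat1, the acetyltransferase that starts polyamine breakdown, was the lowest at -1.53, and Srm, spermidine synthase, the highest at 0.71. The median was -0.04 with RNA-Seq library A alone and 0.03 in WT, so the list as a whole did not stay low.

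The 18 transcripts of the tricarboxylic acid cycle had a median of 0.38, with 8 of 16 above and 2 below, and 0.62 in WT, with 14 of 18 above. Sucla2, a succinyl-CoA ligase subunit, was the highest at 1.31, and the 2-oxoglutarate dehydrogenase Ogdh the lowest at -0.29. Glycolysis had a median of 0.50 over 20 transcripts, of which 4 are the uncertain Gapdh entries, and 9 had resolved libraries, 2 above and 1 below. Over members with resolved reads the median was 0.15 and 0.64 with RNA-Seq libraries A and B alone, and 0.16 and 0.15 with footprinting libraries B and A alone. In WT it was 0.63, with 13 of 17 above and 0 below. Pgam1, phosphoglycerate mutase, was at 1.37 and the phosphofructokinase Pfkp, the lowest, at -0.19.

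Respiratory complex I mRNAs had a median of 0.04 over 35 transcripts, with 6 above and 12 below, and complexes II to V 0.19 over 39, with 9 of 35 above and 7 below. For complex I the median was -0.06 and -0.09 with RNA-Seq libraries A and B alone, and for complexes II to V it was 0.04 and 0.32, and 0.09 and 0.37 with footprinting libraries A and B alone. Members of each list spread widely. In the list used for complex I, Ndufa4 was at 1.22 and Ndufa12 at -1.25. Among the ATP synthase genes Atp5g3, a subunit of the membrane ring, was at 1.67 and Atp5k at -1.14. In WT 13 of 33 complex I mRNAs lay above and 1 below, and 21 of 39 and 4 of complexes II to V. Mitochondrial ribosomal proteins had a median of -0.12 over 63 transcripts, from -1.22 for Mrpl18 to 1.05 for Mrpl34, with 8 above and 21 below. It was -0.04 and -0.20 with RNA-Seq libraries A and B alone, and -0.22 and -0.05 with footprinting libraries A and B alone. In WT their median was 0.10, with 18 of 62 above and 11 below.

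Cytosolic chaperones had a median of 0.37 over 22 transcripts, with 9 of 20 above and 1 below, 0.63 and 0.34 with RNA-Seq libraries A and B alone, and 0.70 in WT, with 18 of 22 above and 3 below. Hsp90aa1 at 2.13 had footprints of 25130 and 30090 against RNA of 2067 and 10200. Its RNA-Seq libraries differed widely, yet no footprinting library overlapped them. The constitutive Hspa8 was at -0.09 and the co-chaperone and ubiquitin ligase Stub1 was the lowest at -1.25. Proteasome mRNAs had a median of 0.21 over 29 transcripts, from -1.02 for Psmc1, an ATPase of the cap, to 1.35 for Psma1 of the core. Of these 7 lay above and 7 below, which are shares near those of all transcripts. The median was 0.22 and 0.03 with RNA-Seq libraries A and B alone. In WT it was 0.45, with 17 of 29 above and 1 below. Lysosomal enzymes and the proton pump had a median of 0.29 over 35 transcripts, with 11 of 33 above and 4 below, 0.19 and 0.40 with RNA-Seq libraries A and B alone, and 0.15 in WT, with 7 of 36 above and 1 below. Atp6v1a, the catalytic pump subunit, was the highest at 1.59 and the hexosaminidase Hexa the lowest at -0.94.

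Synaptic vesicle and release mRNAs had a median of 0.62 over 29 transcripts, with 11 of 27 above and 1 below, and the median was 0.28 with RNA-Seq library A, 1.01 with library B and 0.46 in WT. Rab3c, a vesicle GTPase, was the highest at 1.97, Snap25, a SNARE, was at 1.16, and Syn1 and Syn2, the synapsins that tether vesicles, were at 1.07 and 1.00. Syt1, the calcium sensor of release, had footprints of 9016 and 9073 against RNA of 2860 and 6060. The active zone scaffold Rims1 was the lowest at -2.35, but it was at -0.01 with RNA-Seq library A alone and -0.78 in WT.

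Postsynaptic scaffolds and calcium-dependent kinases had a median of -0.08 over 24 transcripts, with 3 of 19 above and 3 below. Ddn was the lowest, followed by Dlgap3 at -2.72, Shank1 at -2.50, the GTPase activator Agap2 at -1.83, Dlg4, which encodes PSD-95, at -1.75, Shank3 at -1.10 and Shank2 at -0.97. Other scaffolds lay over the median, with Dlgap2 at 0.60 and Dlg2 at 0.39. Dlg4 had footprints of 5660 and 5089 against RNA of 27050 and 8058, and Dlgap3 had 1802 and 1291 against 17240 and 2559. For both, every RNA-Seq library exceeded every footprinting library.

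For the Shank genes the RNA-Seq libraries disagreed. Shank3 was at -1.94 with library A alone and 0.85 with library B alone, and Shank2 at -1.79 and 0.90. In WT the low scaffolds lay below, with Shank3 at -1.85, Shank2 at -1.56, Dlg4 at -2.32 and Dlgap3 at -2.63. Shank1, Dlgap3 and Ddn are among the 48 transcripts that limma called in WT.

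The highest member was Camk4, a nuclear CaM kinase, at 1.94, with footprints of 7574 and 7204 against RNA of 1235 and 2510. The calcineurin subunits Ppp3ca and Ppp3r1 were at 1.70 and 1.68, and neurogranin, Nrgn, a calmodulin-binding protein, was at 1.38. In WT these were at 1.08, 0.65, 1.13 and 0.71. Over the whole list, 8 of 23 lay above and 9 below in WT. Over the members with resolved reads alone the median was 0.22 with RNA-Seq library A and 0.36 with library B, but -0.43 and -0.39 with footprinting libraries A and B, so the side of this list depends on the members and libraries used.

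Ionotropic receptor subunits had the highest class median, 0.76 over 20 transcripts, with 9 above and 3 below. The GABA-A receptor subunit Gabra2 was the highest at 2.31, and Gabrb2 was at 2.00. Gabra2 had footprints of 2287 and 1882 against RNA of 220.1 and 596.1, with no overlap. At the low end were Grik5, a kainate receptor subunit, at -1.88 and Grin2c, an NMDA receptor subunit, at -1.67. The median was 1.47 with RNA-Seq library A alone, 0.26 with library B alone and 0.18 in WT, where 1 of 22 lay above and 7 below, so the high rank of this class was not seen in WT.

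Voltage-gated calcium and sodium channels had a median of -0.19 over 17 transcripts, or 0.16 and -0.29 with RNA-Seq libraries A and B alone and -0.07 with footprinting library A alone. Of 16, 1 lay above and 3 below, and Cacna2d1, a calcium channel subunit, was the highest at 1.29. Potassium channels had a median of 0.14 over 31, which was 0.11 and 0.21 with RNA-Seq libraries A and B alone and 0.07 with footprinting library B alone, and turned to -0.36 among those with both means at least 500 and to -0.07 in WT. They ran from Kcnh3 at -2.03 to the glial inward rectifier Kcnj10 at 1.81, with 6 above and 8 below. In WT the median of the calcium and sodium channels was -0.30, and 8 of 17 of these and 12 of 34 potassium channels lay below. Kcnh3 lay below in both cohorts, with a WT value of -2.19.

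Tubulin and actin cytoskeleton mRNAs had a median of 0.69 over 29 transcripts, with 10 of 21 above and 1 below, 0.42 and 1.01 with RNA-Seq libraries A and B alone, and 0.65 in WT, with 23 of 31 above. Tmsb4x, the actin-sequestering thymosin, was the highest at 1.68, Actb, cytoplasmic actin, was at 1.26, and Tubg1, the nucleating gamma-tubulin, was the lowest at -0.75. Kinesin and dynein motors had a median of -0.06 over 32 transcripts, with 10 of 30 above and 8 below, and of 0.32 and -0.17 with RNA-Seq libraries A and B alone. In WT it was 0.38, with 14 of 32 above and 7 below. Kif5b, the ubiquitous conventional kinesin, was at 1.69, with footprints of 2774 and 3082 against RNA of 393.3 and 1368. Its neuronal paralog Kif5a was at -2.40, and WT gave 0.37 and -1.28. Kifc2 was the lowest at -2.68 and the dynein light chain Dynlt3 the highest at 1.95.

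Among nuclear proteins, splicing factors and chromatin enzymes lay on opposite sides. Splicing factors and hnRNPs had a median of 0.59 over 59 transcripts, with 27 of 58 above and 6 below. The medians were 0.81 with RNA-Seq library A, 0.34 with library B and 0.27 in WT, where 20 of 59 lay above and 7 below. Hnrnpa3 was the highest at 1.92, and Snrpn, an imprinted gene of the spliceosome, the lowest at -1.76. Chromatin enzymes had a median of -0.36 over 40, with 2 of 38 above and 14 below, and -0.20 and -0.29 with RNA-Seq libraries A and B alone. In WT it was -0.41, with 3 of 41 above and 18 below. Chd3, a remodeler of the NuRD complex, was the lowest at -2.66, with footprints of 2639 and 2056 against RNA of 16770 and 12040. Smarca5, the ISWI ATPase, was the highest at 1.36.

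RNA-binding translational regulators had a median of 0.43 over 31 transcripts, with 15 above and 7 below, 0.67 and 0.32 with RNA-Seq libraries A and B alone, and 0.02 in WT, with 12 of 32 above and 9 below. The neuronal ELAV proteins Elavl4 and Elavl2 were at 1.74 and 1.47 and Fmr1, which encodes FMRP, at 1.63. Tnrc6c, a partner of Argonaute, was the lowest at -1.23, and Ybx1, an mRNA packaging protein, was at -1.15. Immediate early genes had a median of 0.69 over 20 transcripts, with 5 above and 0 below, against 19.5% and 26.8% of all transcripts. Their median was 0.06 with RNA-Seq library A alone, 1.63 with library B alone and 0.46 in WT. Nr4a3 was the highest at 1.28 and Npas4 the lowest at -0.66. The CDS of this class had a median GC content of 60.4%.

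**Figure D1:**
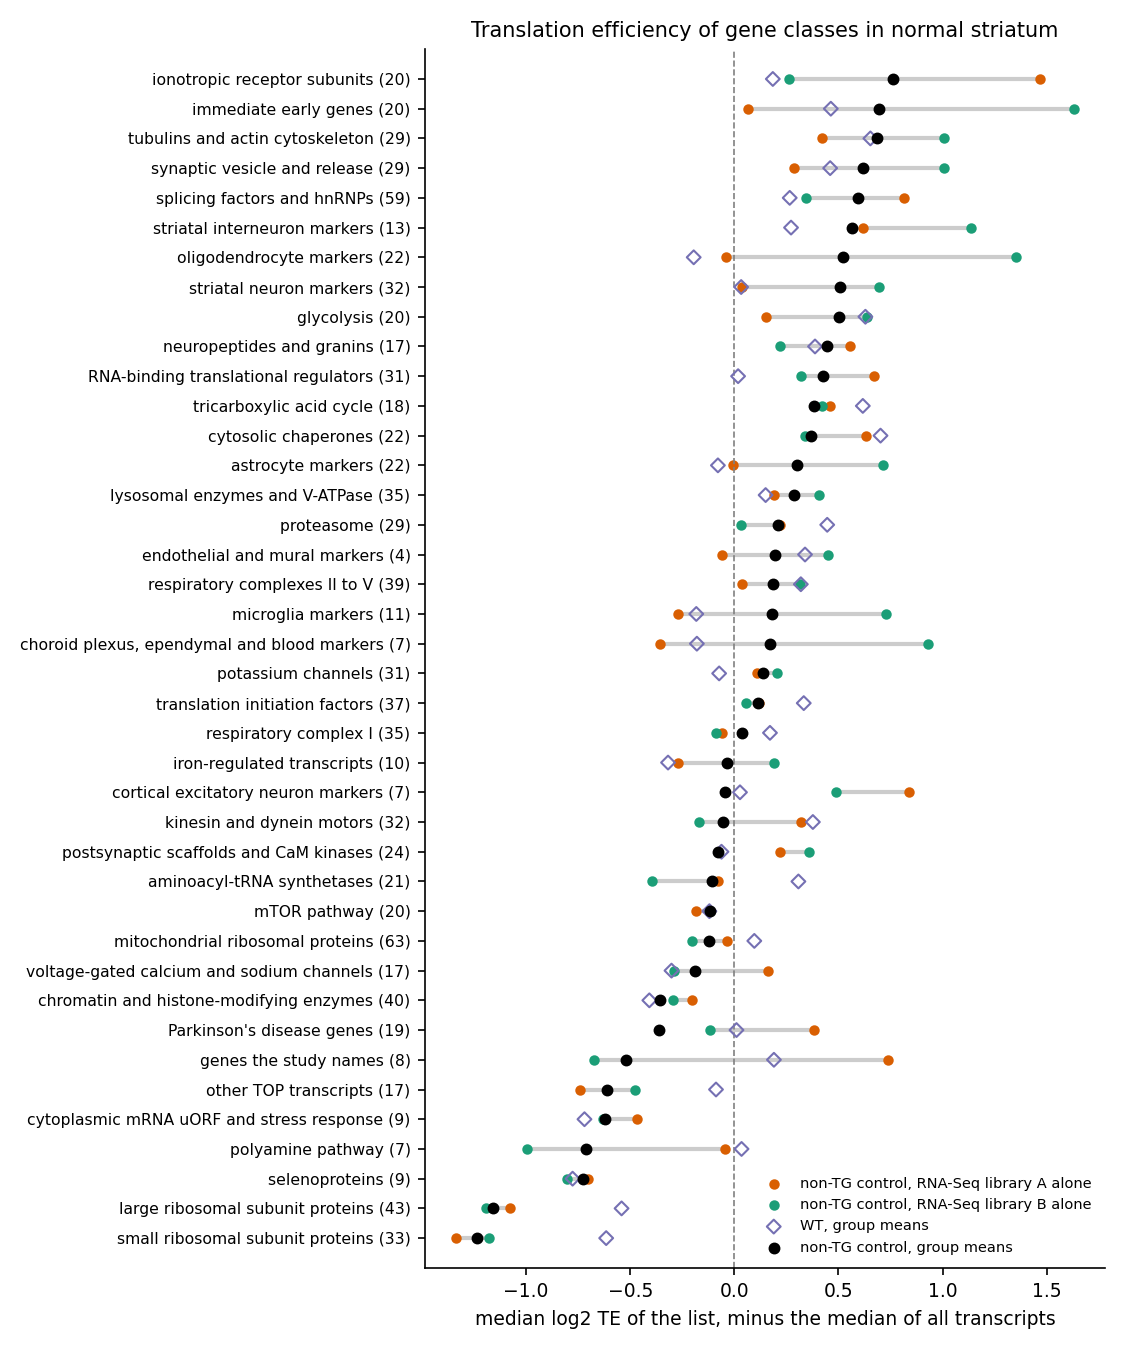
Median log2 TE of 40 gene classes relative to the median of all transcripts (x axis, log2 units), with the number of measured transcripts in parentheses. Black points are non-TG control means, orange and green points use RNA-Seq library A or B alone, joined by a grey line, and open diamonds are WT; ribosomal proteins stood lowest at -1.24 and -1.16, and the libraries lay far apart for classes such as ionotropic receptor subunits (1.47 and 0.26).

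Across the 40 lists, 23 medians lay over the median of all transcripts. In 11 settings, which used single libraries, other minimum means, a GC adjustment, the other control table and WT, 23 lists stayed on 1 side, 7 of them under and 16 over the median, and 17 crossed it. The difference between a list's medians with RNA-Seq library A and with library B had a rho of -0.628 with the list's median CDS GC content over the lists. Lists overlap in some members and differ in size, so this is a description only.

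The tissue label was checked against markers by level. Striatal neuron markers were 32 of 38 listed, and they held 1.90% of all normalized footprints and 1.74% of RNA, with Ppp1r1b, or DARPP-32, the most abundant. Their control means summed to 284500 footprints and 236900 RNA reads. Per library the sums were 214100 and 187700 over 29 members with resolved footprints, and 206100 and 148500 over 30 with resolved RNA. Cortical excitatory neuron markers were 7 of 16 and held 0.0384% of either assay, with Mef2c the most abundant and Neurod2, Fezf2 and Rorb not listed. Their sums were 5677 and 5822 in footprinting and 5112 and 5359 in RNA-Seq. In WT 14 of 16 cortical markers were listed and held 0.117% of RNA, so the control share covers fewer markers, and striatal markers held 1.62%. Striatal markers thus held far more of the RNA than cortical ones in both cohorts, although these are sums over lists of unlike length, 38 and 16. Fewer cells of a type and less RNA per cell cannot be told apart.

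Projection neuron genes of the striatum had a median TE of 0.51 over 32 transcripts, with 11 of 28 above and 9 below. The median was 0.04 and 0.69 with RNA-Seq libraries A and B alone, 0.32 with footprinting library B alone and 0.03 in WT. The dopamine receptor of the indirect pathway, Drd2, was the lowest at -1.84, with footprints of 1564 and 1248 against RNA of 8051 and 1778, and Adora2a, the adenosine receptor of the same neurons, was at -1.27, with 3227 and 2276 against 9588 and 3350. Both lay below in both cohorts, with WT values of -2.23 and -1.41. For each, however, the lower RNA-Seq library of non-TG control came near the higher footprinting library.

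The dopamine receptor of the direct pathway, Drd1a, was at 0.50 in non-TG control and -0.06 in WT. The peptide precursors Tac1, Pdyn and Penk were at 1.23, 1.12 and 0.72, and the G protein subunit Gnal, which couples these receptors to adenylyl cyclase, at 1.60, whereas the cyclase Adcy5 was at -1.12. Ppp1r1b was at 0.06. The transcription factor Foxp2 was the highest at 1.72. Over all 17 neuropeptide and granin mRNAs the median was 0.45, with 7 of 14 above and 0 below, from Tac1 to the proSAAS precursor Pcsk1n at -0.83. It was 0.56 and 0.22 with RNA-Seq libraries A and B alone, and 0.39 in WT, with 1 of 16 above and 1 below.

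Interneuron markers were 13 of 15, with Th and Htr3a not listed, and Gad1 was the most abundant. Their control means summed to 41530 normalized footprints and 17240 RNA reads. Per library the sums were 19460 and 23690 over the 12 members with resolved footprints, without Gad1, and 16940 and 17540 over all 13 for RNA. Their median TE was 0.57, with 6 of 12 above and 1 below, and 0.27 in WT, with 3 of 12 above and 0 below. With RNA-Seq libraries A and B alone it was 0.62 and 1.13. The choline transporter Slc5a7 was the highest at 2.17 and the GABA-synthesizing enzyme Gad2 was at 1.66, while the transcription factor Lhx8 was the lowest at -0.23. WT gave 1.23 for Gad2 and 0.24 for Slc5a7.

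Oligodendrocyte markers were 22 of 23. They summed to 99600 and 84310 normalized footprints, and to 65840 RNA reads in library A but 29670 in library B. Their median TE was 0.52, with 5 above and 2 below, yet it was -0.04 with RNA-Seq library A alone, 1.35 with library B alone and -0.20 in WT. The myelin basic protein Mbp was at 0.29 and -0.34 in the cohorts, and the connexin Gjb1 was the lowest at -0.86. The TE of this list therefore depends on the RNA-Seq library.

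Astrocyte markers were 22 of 22, with Glul the most abundant. Their control means summed to 153400 normalized footprints and 116400 RNA reads. Per library the sums were 87930 and 80380 over 18 members with resolved footprints and 105700 and 97510 over 21 with resolved RNA, which are different sets. Their median TE was 0.30, with 5 of 18 above and 4 below, but -0.01 and 0.71 with RNA-Seq libraries A and B alone, 0.19 with footprinting library B alone and -0.08 in WT. Slc1a2 was the highest at 2.24 and the growth factor receptor Fgfr3 the lowest at -0.91. Microglia markers were 11 of 18, without Aif1, P2ry12 and Tyrobp. They summed to 5954 and 8086 footprints and 6963 and 6969 RNA reads, with a median TE of 0.18, or -0.27 and 0.73 with RNA-Seq libraries A and B alone, 0.04 with footprinting library A alone and -0.18 in WT, from the cathepsin Ctss at -0.88 to the chemokine receptor Cx3cr1 at 0.72.

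Vascular markers were 4 of 19, without Pecam1, Cldn5, Flt1 and Pdgfrb. Bsg, which other cells also express, was the most abundant, and they summed to 6194 and 5739 footprints and 5981 and 4677 RNA reads. Their median TE was 0.20, or -0.06 and 0.45 with RNA-Seq libraries A and B alone and 0.34 in WT, from Tagln at -0.20 to the glucose transporter Slc2a1 at 0.63. Choroid plexus, ependymal and blood markers were 7 of 15, without Folr1, Kl and Kcnj13. The alpha-globin Hba-a2, which shares reads with its copy, was the most abundant and had the lowest TE at -1.06. Their control means summed to 37900 footprints and 40220 RNA reads, and per library, over 6 resolved members of each assay, to 28090 and 29460 and to 40630 and 24020. Their median was 0.17, or -0.35 and 0.93 by RNA-Seq library, -0.32 with footprinting library B alone and -0.18 in WT, and Enpp2, autotaxin, was the highest at 0.73. Cortical markers ranged from Cux1 at -0.92 to Mef2c at 1.32 around a median of -0.05, or 0.84 and 0.49 by RNA-Seq library, -0.38 and 0.25 by footprinting library and 0.03 in WT. The part of any of these cell types in the TE of other genes was not tested.

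The mTOR pathway and the genes of Parkinson's disease were not set apart. The mTOR list had a median of -0.12 over 20 transcripts, with 2 above and 4 below, and -0.19 and -0.12 with RNA-Seq libraries A and B alone. The kinases Akt2 and Akt1 were at -1.98 and -1.91 and lay below in both cohorts, and Rictor, a defining mTORC2 subunit, was the highest at 0.81, although it was at 3.17 with RNA-Seq library A and -0.12 with library B. The Parkinson's disease list had a median of -0.36 over 19, with 4 above and 5 below, but 0.38 with RNA-Seq library A alone, -0.12 with library B alone and 0.01 in WT. Vps35 of the retromer was the highest, at 2.10 with RNA-Seq library A and 0.43 with library B, and Rab8a, a substrate of LRRK2, the lowest at -1.71, with Atp13a2, a lysosomal polyamine transporter, at -1.41.

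Lrrk2 itself was at -1.16, with footprints of 1224 and 1445 normalized reads. Its RNA was 560.2 in library A and 5233 in library B, so its TE was 1.19 with the first and -2.08 with the second, and WT gave -0.25. The direction of its baseline TE was therefore not settled by these libraries. Of the other genes the study names, Rps15 was at -1.52 and lay below in both cohorts, and Eif2s1, the alpha subunit of eIF2, was at 0.60. The helicase Ddx3x was at 0.69, with RNA of 449.7 and 4536, and its Y-linked paralog Ddx3y was at 1.25. The list had a median of -0.52, but 0.33 in the other control columns and 0.19 in WT, 0.74 and -0.67 with RNA-Seq libraries A and B alone, and -1.05 and -1.03 with footprinting libraries A and B alone. It covers 8 of 10 genes, with 1 of 7 above and 3 below, and Dhx29 and Eif4ebp1 are not listed. It was chosen by the study, partly from these mice.

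The predicted folding energy of the 5′UTR, the lowest over the isoforms of a gene, had a median of -91.15 kcal/mol and a lowest value of -1664.78, and 29 transcripts had a value of 0. A more negative value stands for a more stable fold. Across the 8576 transcripts TE and folding energy had a rho of 0.137, so TE was somewhat lower where folds were more stable. The rho was 0.134 in the other control columns, which are not independent of these, and 0.224 over 9561 transcripts in WT. In non-TG control it was 0.0841 with RNA-Seq library A alone and 0.0937 with library B alone, and 0.125 and 0.144 with the footprinting libraries. In WT it was 0.145 with RNA-Seq library A alone and 0.246 with library B alone.

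The relation was not a straight line. Median TE was 0.02 for the 1038 transcripts over -20 kcal/mol, 0.14 for 1578 from -20 to -50, and 0.12 for 1996 from -50 to -100. It was -0.07 for 2814 from -100 to -250 and -0.27 for 1150 under -250. In non-TG control the highest medians were thus those of the middle bands. The most folded 5′UTRs gave -0.27 with RNA-Seq library A, -0.17 with library B and -0.30 in WT. In WT the 3 bands from the least folded gave 0.09, 0.16 and 0.08, so the middle band from -50 to -100 was not higher there.

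The share of transcripts below ran from 22.4% in the band from -20 to -50 to 32.1% under -250 kcal/mol, and the share above from 24.3% in the band from -50 to -100 to 11.5% under -250. Over -20 kcal/mol 27.2% lay below and 16.9% above. In WT 41.2% lay below under -250 and 19.9% over -20. The middle 50% of transcripts in the most folded band ran from -0.81 to 0.23 and in the least folded from -0.45 to 0.44, so the bands overlapped for most transcripts. For small subunit ribosomal proteins the median of the folding energies was -23.84 kcal/mol, so these poorly translated mRNAs have little predicted structure.

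**Figure D2:**
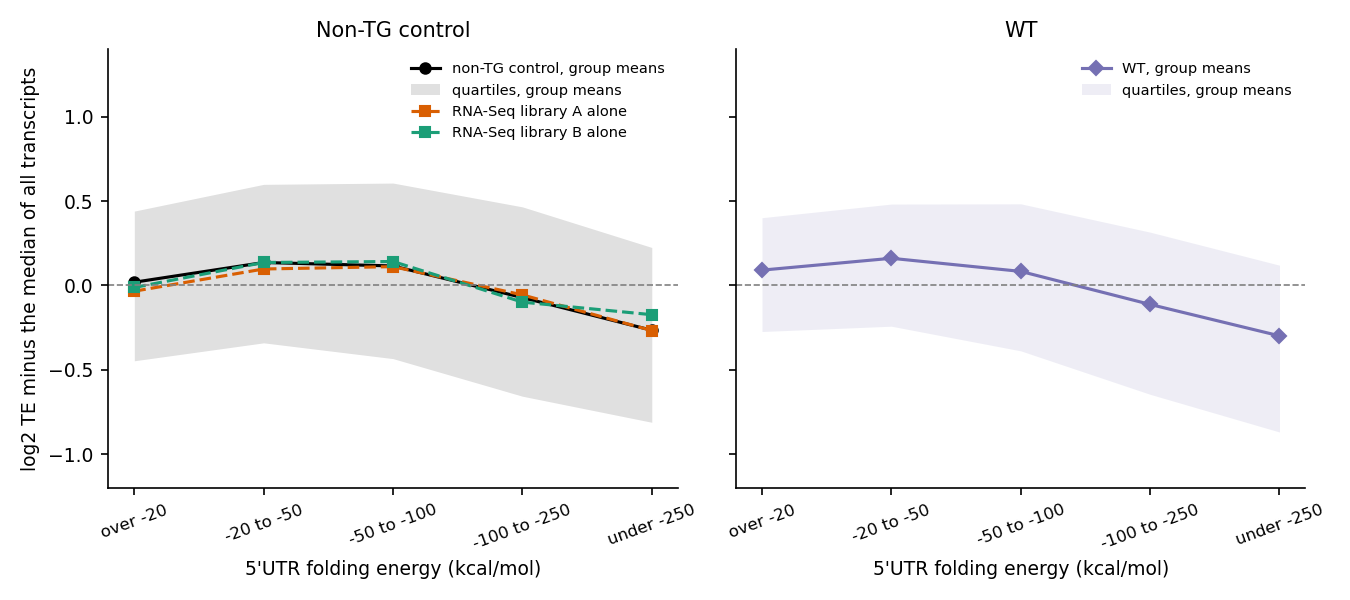
Log2 TE relative to the median of all transcripts (y axis, log2 units) in 5 bands of 5′UTR folding energy (x axis, kcal/mol, most stable at the right), for non-TG control on the left and WT on the right. Points are medians and shading spans the quartiles of the group means, and squares use a single RNA-Seq library; medians lay at -0.27 and -0.30 in the most stable band, within quartiles that overlap between bands.

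Folding energy ran together with other features of the message. From the least to the most folded band, the median 5′UTR length went from 54 to 327 bases, the median CDS length from 1000 to 2151 bases, and the share of 5′UTRs with an upstream ATG from 22.4% to 69.9%. The median CDS GC content was 53.4% and 53.2%, and folding energy had a rho of 0.00891 with it. The rho of TE with folding energy was 0.0896 given CDS length, 0.143 given CDS GC content, 0.160 given 5′UTR length and 0.131 given the RNA-Seq mean. Given the number of upstream ATGs it was 0.0689, and this comparison was chosen after seeing the data. In WT the values given CDS length and upstream ATGs were 0.178 and 0.145. Which of these features carries the relation was not tested, and they cannot be told apart by correlations over the same transcripts.

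Sequence features were matched for 8310 of the 8576 transcripts (96.9%), of which 8068 have an annotated 5′UTR. Upstream ATGs had a rho of -0.197 with TE in non-TG control and -0.260 in WT. The values were -0.124 and -0.157 with RNA-Seq libraries A and B alone. Median TE was 0.14 for the 4024 transcripts with none, -0.13 for 1759 with 1 and -0.15 for 849 with 2. It was -0.19 for 842 with 3 to 4, -0.21 for 421 with 5 to 8 and -0.26 for 173 with 9 or more. The step from none to 1 was thus wider than any later step, with RNA-Seq library A alone (0.10 to -0.13), with library B alone (0.17 to -0.08) and, within non-TG control, in the share of transcripts below (21.5% to 29.9%).

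In WT the medians were 0.15 with no upstream ATG, -0.10 with 1 and -0.48 with 9 or more. The length of the 5′UTR itself had a rho of -0.00424 with control TE, and the rho with upstream ATGs given that length was -0.243. Given folding energy it was -0.159. Of transcripts below in both cohorts 68.3% held an upstream ATG, against 32.2% of those above in both and 50.1% of all tested. Single genes departed from this, and Drd1a, with 10 upstream ATGs, had a TE of 0.50, while Dlgap3, also with 10, had -2.72.

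CDS length had a rho of -0.168 with TE. Median TE went from 0.18 for 362 transcripts with the shortest CDS, under 400 bases, to -0.35 for 239 with 6000 bases or more, and from 0.10 to -0.46 in WT. The rho was -0.186 with RNA-Seq library B alone but -0.037 with library A alone. Transcripts below had a median CDS of 1605 bases and those above 1191 bases. The length of the 3′UTR had a rho of 0.168, with medians from -0.16 under 300 bases to 0.28 in the band of the longest, where RNA-Seq libraries A and B alone gave 0.67 and 0.07. The rho was 0.214 and 0.0587 with these libraries alone and 0.0735 in WT.

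The relation with CDS GC content turned with the RNA-Seq library. The rho was -0.221 with the control means, -0.638 with library A alone, 0.326 with library B alone and -0.359 in WT. In the 248 transcripts of lowest GC content the median TE was 0.67, made of 2.07 with library A and 0.00 with library B, and WT gave 0.50. In the 442 of highest GC content it was -0.03, made of -0.68 and 1.19, and WT gave -0.30. TE of AT-rich coding sequences thus lay over that of GC-rich ones in WT and in the control means, but not with library B.

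**Figure D3:**
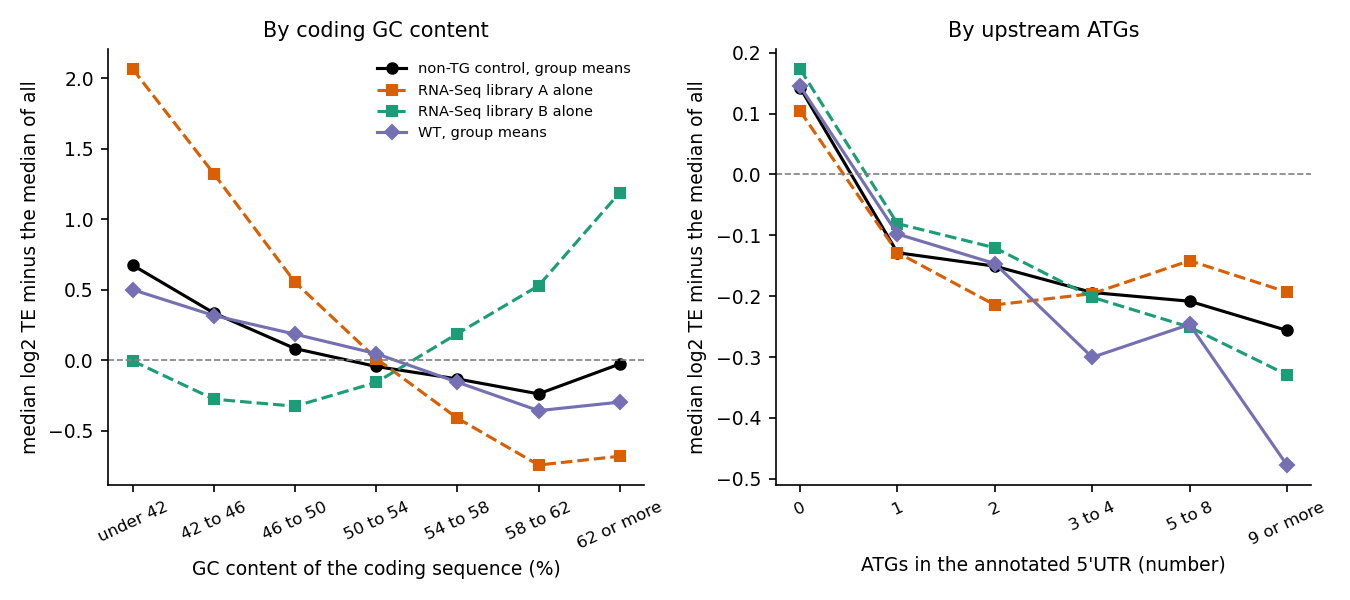
Median log2 TE relative to the median of all transcripts (y axes, log2 units) by GC content of the CDS in percent (left) and by number of ATGs in the annotated 5′UTR (right). Black circles are non-TG control means, orange and green squares use RNA-Seq library A or B alone, and diamonds are WT; the libraries cross by GC content, from 2.07 and 0.00 at the AT-rich end to -0.68 and 1.19 at the GC-rich end, whereas all lie between 0.10 and 0.17 without an upstream ATG and under 0 with any.

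The start codon context was compared by its bases. A purine before and a G after the start codon, counted together, had a rho of 0.0163 with control TE and 0.0428 in WT. By the base 3 before the start codon, the median was 0.06 for 3820 transcripts with A, -0.03 for 3144 with G, -0.04 for 421 with T and -0.17 for 672 with C. The values for C were -0.24 and -0.08 with RNA-Seq libraries A and B alone and -0.17 in WT, and 31.9% of these transcripts lay below, against 24.6% of those with A.

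The start codons of named transcripts at both ends of control TE are shown as examples. Some of their values rest on 1 library or on shared reads, or lack resolved RNA-Seq libraries, as given with each gene. Capitals mark the ATG, and each run covers the last 9 bases of the 5′UTR and the first 6 of the CDS on the NCBIM37 (mm9) assembly. Among the highest control values, Gapdh lies at chr6:125115306-125115320 (-), Marcks at chr10:36858336-36858350 (-), Gh at chr11:106163058-106163072 (-) and Scd3 at chr19:44278002-44278016 (+). Among the lowest, Spnb3 lies at chr19:4718832-4718846 (+), Ankrd12 at chr17:66402375-66402389 (-), Ppp1r9b at chr11:94852853-94852867 (+) and Arhgap10 at chr8:80041677-80041691 (-).
Gapdh: gtagacaaaATGgtg
Marcks: gaagccagcATGggt
Gh: tgcttggcaATGgct
Scd3: agaaccagcATGcca
Spnb3: cccaccaccATGagc
Ankrd12: agctataaaATGccc
Ppp1r9b: cccccaaccATGatg
Arhgap10: gccgcagtcATGggg

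The abundance of the message also ran with TE. The RNA-Seq mean had a rho of -0.220 with control TE and -0.0198 in WT, and as it is the denominator of TE, errors in it alone give a negative value. Transcripts below had a median RNA-Seq mean of 965 and those above of 542.9. Transcripts below in both cohorts had a median of 1080 and those above in both of 749.5, with footprinting medians of 464.4 and 1587.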

How the data were processed

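The values are signal, DESeq-normalized means of CDS reads per group and assay made by the authors and deposited as 1 value for all libraries of a group. By the submitters' processing notes, base calling used CASAVA 1.8, reads were aligned to mm9 with TopHat2 2.0.11 and Bowtie2 2.2.2, and normalization used DESeq 1.20. The authors' own columns for TE compare genotypes and were not used.

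TE is the log2 ratio of the footprinting to the RNA-Seq mean, less the median over all transcripts. The deposited means carry 10 significant digits, from which the reads of 2 libraries per assay were recovered as whole numbers, and this step was tested on simulated data. Library A is the one with fewer reads. The control means of the other table could not be resolved. As the input is signal, no count model was fitted. The difference between assays was tested with limma on log2 of recovered normalized reads with a pseudocount of 10, centred on each library's median, with Benjamini-Hochberg adjustment and a threshold of 0.05.

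Gene lists and their members were chosen with earlier results of these data known, so they give no independent evidence. Genes are named if they are (a) among the 10 highest or 10 lowest TE with both means of at least 500, (b) among the 10 smallest adjusted p of a test with calls, (c) the highest or lowest of a list or needed to describe its count, or (d) genes the study names. Some genes that this rule picks are not reported here. Symbols altered to dates were not named, and 20 symbols are held by more than 1 transcript. Transcript features came from the GENCODE vM1 annotation of NCBIM37. Partial correlations given upstream ATGs, those of upstream ATGs, and features under further settings were chosen after seeing the data. Tools were R 4.3.3 with limma 3.58.1, and Python 3.11.15 with numpy 2.4.6, scipy 1.17.1, pandas 2.3.3, statsmodels 0.14.6, sympy 1.14.0 and matplotlib 3.10.9.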

Additional observations from a re-analysis of the deposited data

Results flagged for a closer look

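Transcripts whose libraries separated in opposite directions in the cohorts drew attention as a difference between groups. There were 15 transcripts above in non-TG control and below in WT, or 0.93% of the 1613 above in non-TG control. Among them were the transcription factors Foxp1 (0.69 and -0.20) and Tcf4 (1.25 and -0.26). There were 78 below in non-TG control and above in WT, or 3.54% of the 2205 below in non-TG control. Their median TE was -0.22 and 0.33, with opposite signs because they were chosen for opposite sides. They include the tRNA synthetases Sars (-1.06 and 0.29) and Aars (-0.11 and 0.70) and the complex I subunit Ndufa5 (-1.15 and 0.36). The cohorts differ in breeding, in library and in table, and the difference was not tested.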

How the results depend on the processing

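The spread of control TE, an SD of 0.841, ran from 0.828 to 1.19 when 1 library was left out, with 1.19 for RNA-Seq library A alone and 1.09 for library B alone. The SD was 0.719 in WT and 0.785 with both means at least 500. The remaining settings ran from 0.81 to 0.846. The number of transcripts called in non-TG control, 0, stayed at 0 with another pseudocount, a higher minimum mean, no centring and GC adjustment, and ran from 0 to 5366 when 1 library was left out. A single RNA-Seq library gives the fit no spread of its own for that assay.

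The libraries carry no replicate number, so the pairing of a footprinting with an RNA-Seq library is unknown and both were tried. With a replicate block that pairs footprinting A with RNA-Seq A, 121 transcripts were called in non-TG control, and with footprinting A and RNA-Seq B, 23. In WT the replicate block gave 0 and 1469. The cause was not tested.

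The 48 calls in WT went to 2 with a pseudocount of 1, 0 with both means at least 500, 1361 without centring and 87 with GC adjustment, and ran from 0 to 95 when 1 library was left out. The cause was not tested, apart from the fewer transcripts tested at the higher minimum.

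The rho of TE with folding energy, 0.137, kept its sign in every setting of TE. It was 0.224 in WT and 0.101 with both means at least 500, ran from 0.0841 to 0.144 when 1 library was left out, and was 0.0896 given CDS length and 0.0689 given upstream ATGs. The footprinting mean alone gave 0.0448 and the RNA-Seq mean alone -0.0402.

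The rho with CDS GC content changed sign with a library, from -0.638 to 0.326 when 1 was left out. That with 5′UTR GC content, -0.0983, was -0.143 with RNA-Seq library A alone and 0.00224 with library B alone. The rho with 5′UTR length, -0.00424, ran from -0.0162 to 0.00645 when 1 library was left out. It was 0.0119 and 0.0414 at higher minimum means, -0.023 with GC adjustment and -0.0836 in WT. CDS length ran from -0.186 to -0.037. Upstream ATGs ran from -0.198 to -0.124, with -0.260 in WT, -0.243 given 5′UTR length and -0.159 given folding energy. The 3′UTR length ran from 0.0587 to 0.214, with 0.0735 in WT. The cause was not tested.

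Only 2 libraries per assay stand behind each value, and base composition cannot be told apart from TE where the RNA-Seq libraries differ.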
